A study of Mus musculus with 8 samples.

Results

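Messenger RNA levels of 8 regulators of transcription and chromatin were examined in NMuMG cells, an epithelial line derived from normal mouse mammary gland. These were the SOX factors Sox4 and Sox9, the histone methyltransferase Ezh2 and the ETS factors Ets1, Ets2, Elk3, Etv4 and Etv5. They were taken by gene symbol from an RNA-seq count table of 37310 genes, by a list drawn up with earlier results of these data known, so their number of calls is a description. The 8 libraries formed 4 groups of 2: untreated control cells, control cells given TGFβ1 at 10 ng/ml over 2 h, and the same pair of conditions in libraries labelled knockout (KO). The knockout cells had been edited with CRISPR-Cas9 to delete the start region of Lnc-Nr6a1, a long non-coding RNA gene that hosts miR-181a2 and miR-181b2, and were expanded from sorted single cells. How many clones stood behind the 2 KO libraries of each condition was not given in the sources used here, so clone and genotype cannot be told apart. All cells were the same line, grown in medium with serum and insulin. The study asked which of the early TGF-β responses depend on Lnc-Nr6a1, and the comparisons below address that question for these 8 genes.

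TGF-β binds a receptor kinase pair that phosphorylates SMAD2 and SMAD3, which enter the nucleus with SMAD4 and change transcription within hours, driving epithelial cells towards a mesenchymal state. SOX factors bind DNA through a high-mobility-group box, and Sox4 is known as an early TGF-β target in mammary epithelium that acts upstream of Ezh2. Ezh2 is the catalytic subunit of Polycomb repressive complex 2 (PRC2), which methylates lysine 27 of histone H3 at silenced genes. ETS factors share a winged-helix DNA-binding domain, and many of them are activated by ERK signalling: Ets1 and Ets2 are activators, Elk3 is a ternary complex factor that works with serum response factor, and Etv4 and Etv5 are induced by receptor tyrosine kinases.

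The promoters of Sox4 and Elk3, which rose after TGF-β, and of Ets2, whose values were lower in treated libraries but which was not called, are shown as the 250 bases before the RefSeq start (GRCm38.p6, 5′ to 3′ on the gene's strand). Windows were found for 5 of the 8 genes. Capitals mark the motif matches described next.
Sox4, chr13:28953700-28953949, minus strand: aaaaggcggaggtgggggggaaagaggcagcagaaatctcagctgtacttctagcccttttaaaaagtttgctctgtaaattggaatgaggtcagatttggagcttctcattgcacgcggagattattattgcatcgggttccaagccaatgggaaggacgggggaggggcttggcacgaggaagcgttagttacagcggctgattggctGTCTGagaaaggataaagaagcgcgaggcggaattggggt
Elk3, chr10:93311160-93311409, minus strand: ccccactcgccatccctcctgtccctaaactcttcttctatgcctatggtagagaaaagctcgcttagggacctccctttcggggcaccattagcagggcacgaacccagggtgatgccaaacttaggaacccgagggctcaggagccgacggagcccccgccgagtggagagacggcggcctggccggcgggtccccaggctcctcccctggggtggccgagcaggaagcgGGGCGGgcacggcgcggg
Ets2, chr16:95702157-95702406, plus strand: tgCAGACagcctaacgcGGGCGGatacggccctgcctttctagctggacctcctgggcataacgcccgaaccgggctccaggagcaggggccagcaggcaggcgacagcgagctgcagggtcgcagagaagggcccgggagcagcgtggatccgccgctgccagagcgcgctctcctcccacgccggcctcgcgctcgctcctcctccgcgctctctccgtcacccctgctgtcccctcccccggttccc
Motifs were searched on both strands. The SMAD-binding letters CAGAC occurred in 42.2% of 32851 RefSeq windows of this length, the AP-1 letters TGANTCA in 6.75%, the CRE letters TGACGTCA in 1.55%, the ETS letters CCGGAAGT in 2.88%, the SOX letters AACAAT in 9.42%, the GC box GGGCGG in 32.7% and the CArG box in 1.47%. Sox4 held 1 SMAD match, 40 to 36 bases before the start, and none of the others. Elk3 held 1 GC box, 18 to 13 bases before the start. Ets2 held 1 SMAD match at 248 to 244 bases and 1 GC box at 233 to 228 bases. The SMAD letters were common among all windows. In Ezh2, none of the 7 motifs matched, which says only that these letters are not in that window. Etv5, which was not called, had 2 windows, with no match in window 1 and 3 GC boxes in window 2.

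Since the edited locus hosts miR-181a2 and miR-181b2, the members' 3′ untranslated regions were searched for the match to their seed. Both mature miRNAs have the same seed, bases 2 to 8, shown in capitals (RefSeq).
miR-181a-5p: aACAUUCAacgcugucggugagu
miR-181b-5p: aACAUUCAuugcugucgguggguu
Ets1, chr9:32562901-32562921, plus strand, NCBIM37: taagtctctgcacTGAATGTa
Of the 8 genes, Ets1 alone held the 7 matching letters, in capitals, starting at base 904 of the 3395 bases of its 3′ untranslated region. The same letters occurred in 14.4% of 19915 genes with such a region, and in 28.4% of 3053 genes whose region was 2000 to 3500 bases long. The miRNAs themselves were not measured in these libraries. Ets1 in KO against control libraries is given with the genotype comparisons.

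The libraries held 4297832 to 13574397 counts. Every treated library was deeper than every untreated one, with 9895118 to 13574397 against 4297832 to 7871090 counts. At these depths, 3 counts, the level taken as the floor of detection, corresponded to 0.238 to 0.661 CPM (counts scaled to library size with TMM factors). All 8 genes lay above it in every library, the lowest being Etv4 with 20 counts in KO replicate 1, and all 8 were among the 13028 genes that passed the filter on low counts. The targeted gene, listed as Gm13507, gave 3 and 14 counts in untreated control and 11 and 7 in untreated KO libraries, so it did not separate them. After TGF-β it had 25 and 35 counts in control and 0 in both KO libraries. KO therefore means "labelled knockout" throughout, and the targeted gene gives no check of the labels of the untreated KO libraries. Of 8 early TGF-β target genes used to check the treatment, 7 were called higher in either genotype. Epithelial keratins and Cdh1 were abundant, but Epcam had at most 2 counts and Cldn3 and Cldn7 none. Ets1 is also a gene of endothelial cells and lymphocytes, and the markers of those cells were near zero: 4 endothelial markers summed to at most 0.846 CPM, Cd3e was at 0 in all libraries and 4 leukocyte markers summed to at most 5.31 CPM, nearly all of it Cd68. The 7 epithelial markers summed to 5865 to 10914 CPM and 8 mesenchymal ones to 2690 to 3992 CPM. Nearly all of the mesenchymal sum was Vim, at 2523 to 3765 CPM, and Col1a2, Col3a1, Pdgfra and Pdgfrb did not pass the filter. After TGF-β in control cells Krt8, Krt18 and Fn1 were called higher, and Cdh1 was higher in treated KO than treated control libraries; the part of these changes in the results below was not tested. The replicates of a group differed by more than sampling noise, with a chi-square per degree of freedom of 6.07 to 35.4.

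Levels per transcript length were compared first, as RPKM (CPM per kilobase of merged exons). In untreated control cells the order was Ets2, at 78.1 ± 1.87 RPKM (SD, n = 2 here and below), Elk3 at 29.0 ± 0.19, Ets1 at 22.3 ± 2.48, Sox4 at 21.6 ± 1.45, Ezh2 at 12.3 ± 1.06, Etv4 at 1.58 ± 0.014, Sox9 at 1.42 ± 0.22 and Etv5 at 0.989 ± 0.054. The libraries of Ets1 and Sox4 overlapped, as did those of Etv4 and Sox9, and the other neighbours in this order lay apart. Ets2 stood at the 94.3 percentile of the RPKM of all tested genes, Sox4 at 75.6 and Etv5 at 9.63. After TGF-β the leading genes of the control cells drew level: Ets1 at 61.6 ± 7.24, Sox4 at 61.5 ± 19.5, Ets2 at 55.6 ± 4.57 and Elk3 at 50.2 ± 8.90 RPKM, with overlapping libraries between each pair of neighbours. In the treated KO libraries the order was Ets2 at 71.1 ± 6.31, Sox4 at 70.6 ± 1.39, Elk3 at 63.0 ± 7.04 and Ets1 at 53.3 ± 8.44 RPKM. There Sox4 lay apart from Elk3, while Ets2 overlapped Sox4 and Elk3 overlapped Ets1. Ezh2 kept the fifth place in all 4 groups, at 8.85 ± 1.52 to 12.7 ± 5.03 RPKM, and Sox9, Etv4 and Etv5 the last places, although Sox9 overlapped Ezh2 in the treated KO libraries.

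**Figure D1:**
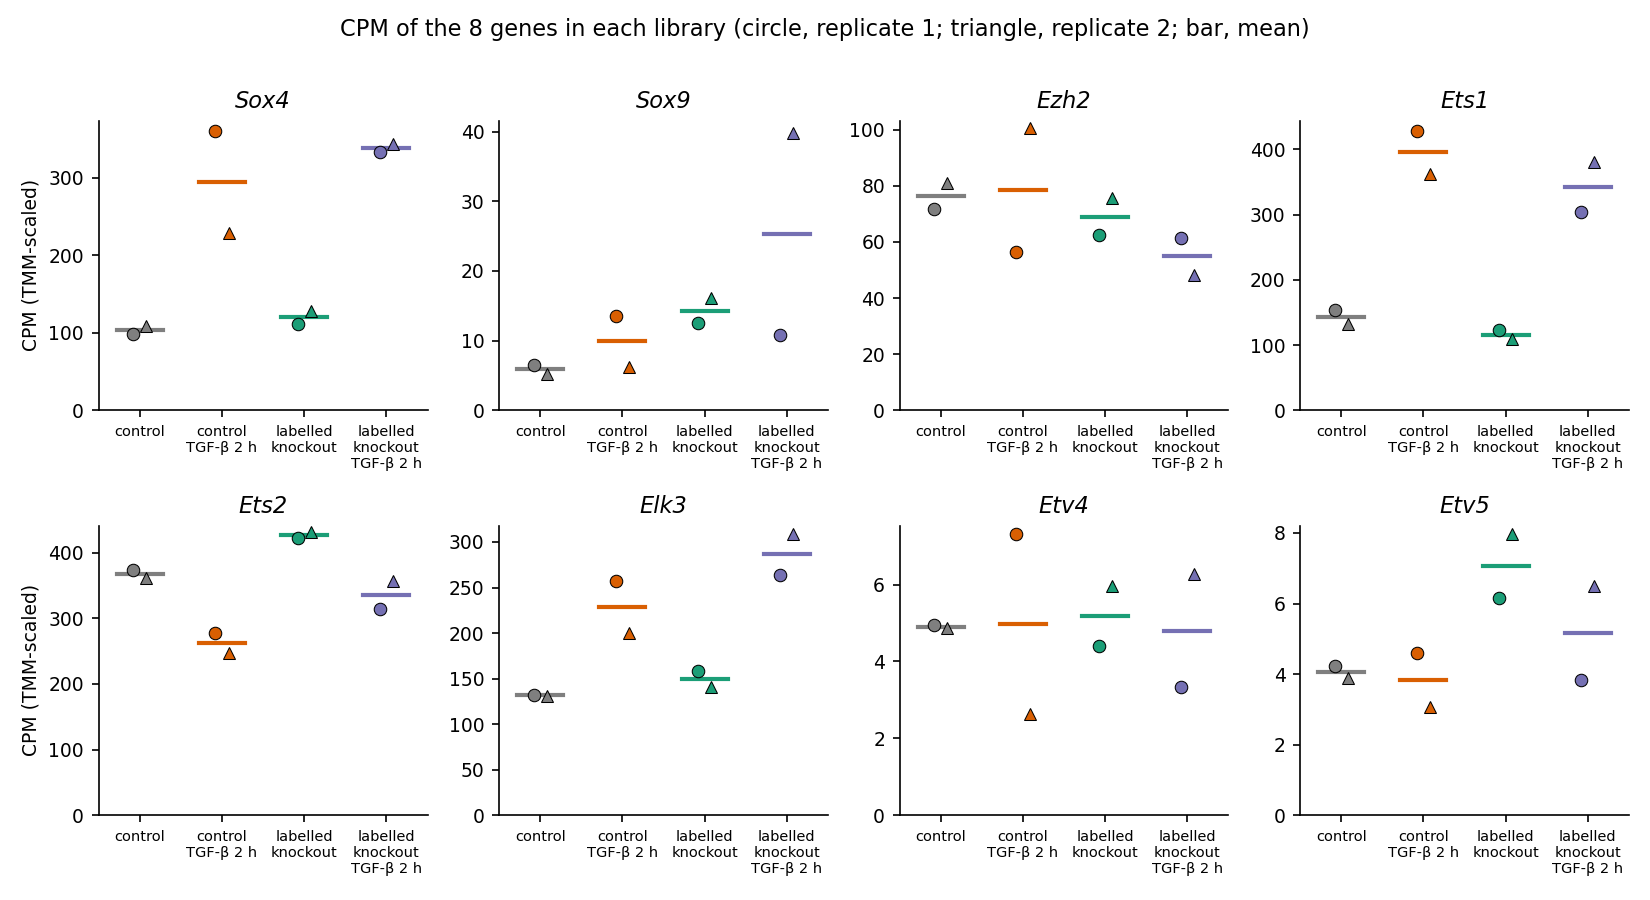
Expression of the 8 genes in CPM (y axis, linear from 0) in each library of the 4 groups (x axis), with circles for replicate 1, triangles for replicate 2 and bars for the mean. Sox4, Ets1 and Elk3 lie higher in every treated library than in every untreated library of the same genotype, and Sox9 in the treated KO pair spreads from 10.8 to 39.8 CPM.

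TGF-β raised Sox4, Ets1 and Elk3 in control cells and in KO libraries. In control cells 3 of the 8 genes were called higher and 0 lower, where 9.16% of the 13028 tested genes were called and 4.69% were called higher (edgeR quasi-likelihood test, adjusted p below 0.05 and a log2 fold change beyond 0.5). In KO libraries the same 3 were called higher, against 6.82% of all genes called and 4.25% called higher. The 2 treated and 2 untreated control libraries did not overlap for 4 of the 8 genes, and 53.7% of all genes were of this kind. In KO libraries the groups did not overlap for 5 of the 8 genes, against 56.6% of all genes. Counts without overlap were thus near the background, and the calls rest on the size of the differences. In bulk RNA, more cells of a kind and more RNA per cell cannot be told apart.

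Sox4 (ENSMUSG00000076431.3, NCBIM37 chr13:29040788-29045582, minus strand, a single exon) had 98.4 and 108 CPM in untreated control libraries and 361 and 229 CPM after TGF-β. In KO libraries it had 112 and 128 CPM untreated and 334 and 343 CPM treated. All treated libraries exceeded all untreated ones, and the treated control pair was the widest apart. The change was 2.85-fold in control cells (log2 fold change 1.51 ± 0.21, SE, adjusted p = 0.0034, edgeR) and 2.82-fold in KO libraries (1.49 ± 0.21, adjusted p = 0.0037). Leaving out untreated control replicate 1 or untreated KO replicate 1 took the adjusted p to 0.0570 and 0.0630, with log2 fold changes of 1.45 and 1.40. A shorter Sox4 model (ENSMUSG00000078309.1) inside the same exon had 0 counts in every library, and the antisense lincRNA Gm17419, which shares 2616 exonic bases with Sox4, had at most 15.

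Ets1 (ENSMUSG00000032035.7, chr9:32443806-32565405, plus strand) had 155 and 132 CPM in untreated control libraries and 428 and 363 CPM after TGF-β. The KO libraries held 122 and 110 CPM untreated and 304 and 380 CPM treated. All 4 treated libraries lay far above all 4 untreated ones, with no overlap. The change was 2.76-fold in control cells (log2 fold change 1.46 ± 0.17, adjusted p = 0.0016) and 2.94-fold in KO libraries (1.56 ± 0.17, adjusted p = 0.0012). Ets1 was the one gene of the 8 that stayed called under each of the 18 alternative settings in both genotypes, with adjusted p up to 0.0249 in control cells and 0.0345 in KO libraries.

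Elk3 (ENSMUSG00000008398.7, chr10:92710159-92773880, minus strand) had 133 and 131 CPM in untreated control libraries and 257 and 200 CPM after TGF-β. For KO libraries the values were 159 and 141 CPM untreated and 264 and 309 CPM treated. The treated libraries exceeded the untreated ones by a smaller factor than for Sox4 and Ets1. The change was 1.73-fold in control cells (log2 fold change 0.79 ± 0.16, adjusted p = 0.0207) and 1.91-fold in KO libraries (0.94 ± 0.16, adjusted p = 0.0109). In control cells the adjusted p was 0.152 without untreated replicate 1, 0.115 without untreated replicate 2 and 0.0566 for the 4 control libraries alone, while the log2 fold change stayed at 0.80, 0.78 and 0.79. Among KO libraries the adjusted p was 0.0770 without untreated replicate 1, 0.129 without untreated replicate 2 and 0.0675 without treated replicate 2, with log2 fold changes of 1.03, 0.85 and 0.83. Of the 4550 exonic bases of Elk3, 316 overlap exons of Cdk17 on the opposite strand, and Cdk17 was itself higher after TGF-β by 0.69 ± 0.15 in control cells (adjusted p = 0.0266) and 0.62 ± 0.15 in KO libraries (adjusted p = 0.0420). Whether reads were counted by strand is not given in the sources used here, and the part of Cdk17 reads in the Elk3 counts was not tested.

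**Figure D2:**
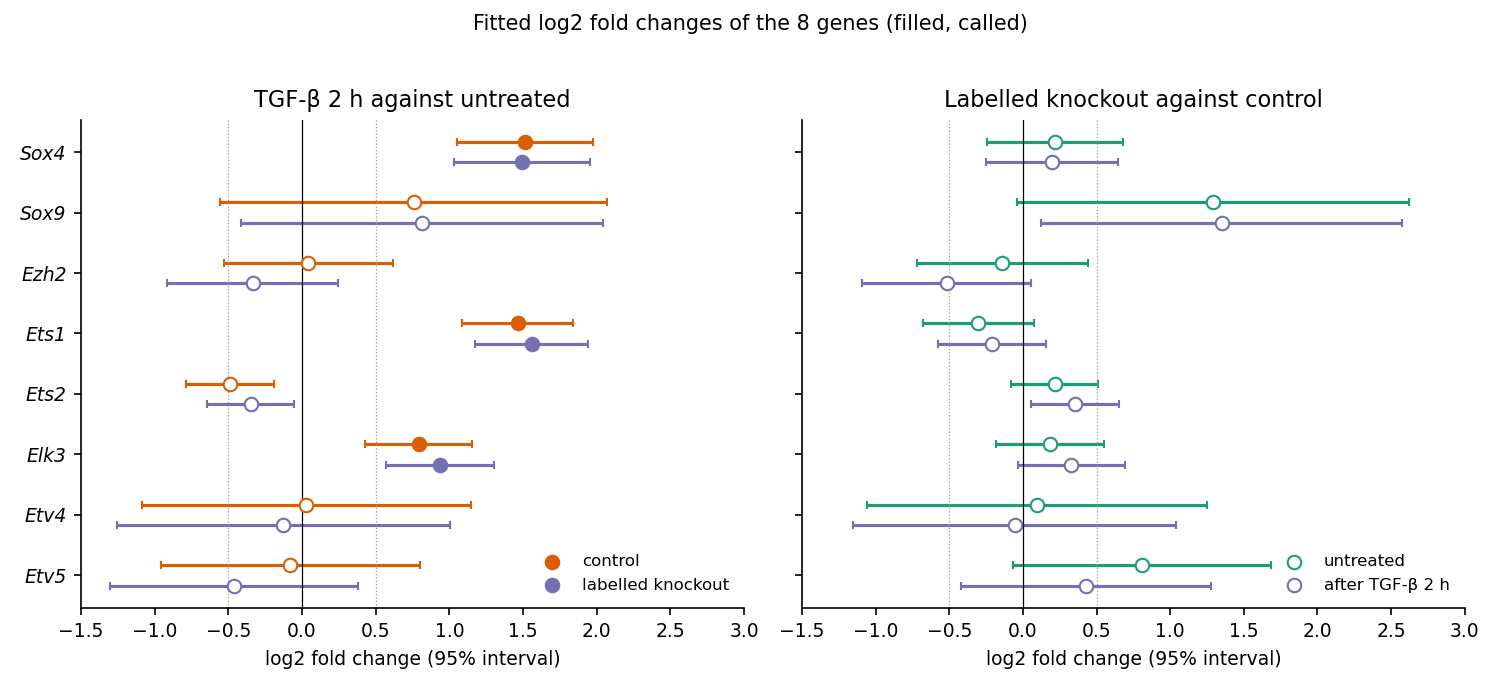
Fitted log2 fold changes (x axis) of the 8 genes with 95% intervals, for TGF-β against untreated in each genotype (left) and for KO against control libraries in each treatment (right), with filled points for called genes and dotted lines at 0.5 either way. Sox4, Ets1 and Elk3 are filled on the left in both genotypes and no point is filled on the right.

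Ets2 (ENSMUSG00000022895.8, chr16:95923682-95942658, plus strand), the close relative of Ets1, was not called in either genotype. It had 374 and 362 CPM in untreated control libraries and 277 and 247 CPM after TGF-β, and in KO libraries 422 and 432 CPM untreated and 314 and 356 CPM treated. Every treated library was lower than every untreated library of its genotype. The log2 fold change was -0.49 ± 0.13 in control cells, with an adjusted p of 0.0496 that passed its threshold and a size just under the threshold of 0.5, so Ets2 was not called. Without treated control replicate 1 it was called, at -0.58 with an adjusted p of 0.0405. In KO libraries the value was -0.35 ± 0.13 (adjusted p = 0.155). The ratio of Ets2 to Ets1 per transcript length was 3.30 and 3.74 in untreated control libraries and 0.883 and 0.928 after TGF-β. In KO libraries the ratio was 4.70 and 5.35 untreated and 1.41 and 1.28 treated. Ets2 thus exceeded Ets1 in every library except the treated control pair, where Ets1 was slightly higher.

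Over the 26 ETS genes found in the table, the summed level was 259 to 270 RPKM in untreated control libraries and 292 to 354 RPKM after TGF-β. In KO libraries it was 268 to 279 RPKM untreated and 315 to 397 RPKM treated. The share of Ets2 in this sum was 29.4 to 29.7% in untreated and 16.7 to 17.9% in treated control libraries, and 32.1 to 34.2% and 19.0 to 21.2% in KO libraries. Ets1 went from 7.95 to 8.92% up to 18.9 to 19.3% in control libraries, and from 6.39 to 6.84% up to 14.9 to 15.0% in KO libraries. Elk3 made up 10.8 to 11.2% untreated and 15.0 to 16.0% treated in control, and 11.5 to 12.5% and 17.1 to 18.4% in KO libraries. The 5 ETS members together made up 49.8 to 55.2% of the sum in all 8 libraries.

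**Figure D3:**
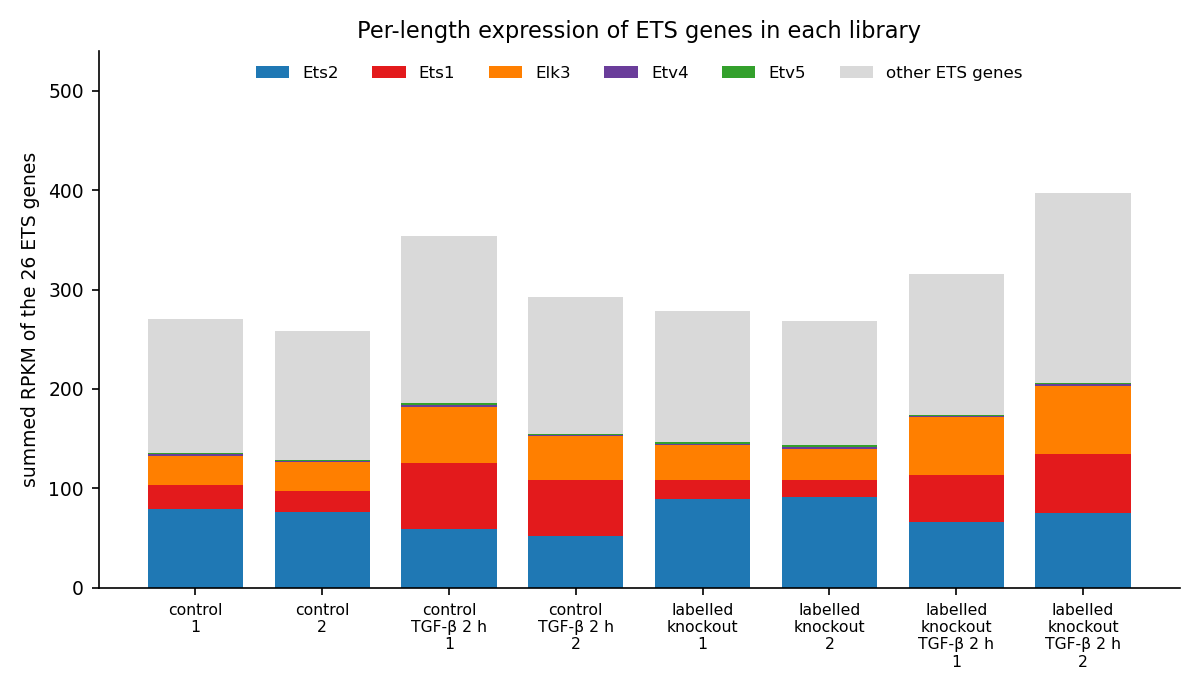
Stacked bars of the per-length level (RPKM, y axis from 0) of the 26 ETS genes in each of the 8 libraries (x axis), coloured for the 5 members and grey for the rest. Ets2 takes 29.4 to 34.2% of a bar in untreated libraries and 16.7 to 21.2% in treated ones, while the red part, Ets1, grows.

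Of 22 other ETS family genes listed, 21 were found and 11 passed the filter. None was called after TGF-β in either genotype by edgeR, with 3 and 2 of the 11 at an unadjusted p below 0.05 in control and KO libraries, where 26.8% and 22.7% of all tested genes lay. Their median log2 fold changes were 0.17 and 0.26, where the medians of all tested genes lay between -0.012 and 0.018 in the 4 pairwise comparisons. Ehf, an epithelial ETS factor, was the one called between genotypes. It had 10.7 and 17.3 CPM in untreated control libraries, 19.7 and 27.7 CPM in treated control libraries, 3.30 and 3.19 CPM in untreated KO libraries and 1.95 and 2.38 CPM in treated KO libraries. Its log2 fold change in KO against control libraries was -2.11 ± 0.35 untreated (adjusted p = 0.0187) and -3.44 ± 0.33 after TGF-β (adjusted p = 0.000812). None of the 5 ETS members was called in those comparisons.

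Etv4 (ENSMUSG00000017724.8, chr11:101631056-101646685, minus strand) and Etv5 (ENSMUSG00000013089.8, chr16:22381382-22439792, minus strand), ETS factors induced by ERK signalling, were scarce. Etv4 had 41 and 40 counts in untreated control libraries, 78 and 25 after TGF-β, 20 and 45 in untreated KO libraries and 41 and 79 in treated KO libraries. Etv5 had 35 and 32, 49 and 29, 28 and 60, and 47 and 82 counts in the same order. Treated and untreated libraries overlapped for both genes in both genotypes. In control cells the log2 fold change after TGF-β was 0.027 for Etv4 (95% interval -1.09 to 1.14) and -0.081 for Etv5 (-0.96 to 0.80). In KO libraries it was -0.13 for Etv4 (-1.26 to 1.01) and -0.46 for Etv5 (-1.31 to 0.38). The intervals reached past 1 on the log2 scale in both directions for Etv4 and, downwards in KO libraries, for Etv5, so changes of that size lay within them.

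Of 9 feedback genes of ERK signalling that are expressed with Etv4 and Etv5, 7 passed the filter. Spry1, an inhibitor of receptor tyrosine kinase signalling, fell after TGF-β in both genotypes. It went from 14.5 and 17.2 to 2.53 and 3.70 CPM in control libraries (log2 fold change -2.35 ± 0.31, adjusted p = 0.0031) and from 8.59 and 10.9 to 1.71 and 1.83 CPM in KO libraries (-2.46 ± 0.33, adjusted p = 0.0033). Spred2, another inhibitor of this pathway, rose in KO libraries (0.95 ± 0.17, adjusted p = 0.0109) and was higher in treated KO than in treated control libraries (0.98 ± 0.16, adjusted p = 0.0065). The other 5 were not called in any comparison. The summed CPM of the 9 genes was 341 and 227 in the treated control pair and 275 and 427 in the treated KO pair, so it differed between replicates in the same direction as Etv4 and Etv5 in both pairs. Its part in their spread was not tested.

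Sox9 (ENSMUSG00000000567.4, chr11:112643538-112649074, plus strand), a factor of mammary stem and luminal progenitor cells, had the replicate pair farthest apart on the log2 scale among the 8 genes. It had 6.51 and 5.24 CPM in untreated control libraries and 13.6 and 6.24 CPM after TGF-β. KO libraries gave 12.6 and 16.1 CPM untreated and 10.8 and 39.8 CPM treated. The treated KO pair included the highest value of all and one below both untreated KO libraries. The log2 fold change after TGF-β was 0.76 ± 0.59 in control cells (adjusted p = 0.440) and 0.81 ± 0.55 in KO libraries (adjusted p = 0.424). Both rested on single libraries: the control value was 0.081 without treated control replicate 1 and 1.18 without replicate 2, and the KO value was 1.48 without treated KO replicate 1 and -0.40 without replicate 2. Between genotypes, both untreated KO libraries exceeded both untreated control libraries, by 1.29 ± 0.59 on the log2 scale (adjusted p = 0.350). After TGF-β the difference was 1.35 ± 0.55 (adjusted p = 0.126) and the libraries overlapped. Sox9 was not called in either, but it was the gene whose genotype call depended most on the settings. It was called in untreated libraries without a filter on low counts (adjusted p = 0.0028) and in a fit of the 4 untreated libraries alone (0.0187). In treated libraries it was called without the filter (4.05e-05), by DESeq2 (0.0397) and without treated KO replicate 1 (2.01, adjusted p = 0.0147), whereas without treated KO replicate 2 the difference was 0.13.

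Of 17 other SOX family genes listed, 16 were found and 4 passed the filter. None was called after TGF-β by edgeR, with 4 of the 4 at an unadjusted p below 0.05 in control cells and 1 in KO libraries, where 26.8% and 22.7% of all tested genes lay. The changes in control cells went in both directions, with a median log2 fold change of -0.017, and the 4 include Sox6, described below. After TGF-β, Sox13 was higher in KO than in control libraries. Sox13 had 14.7 and 6.03 CPM in treated control and 22.1 and 33.3 CPM in treated KO libraries (log2 fold change 1.41 ± 0.36, adjusted p = 0.0305). Untreated, it had 19.2 and 20.1 CPM in control and 30.8 and 36.1 CPM in KO libraries. That difference, also higher in KO, was not called (0.77 ± 0.36, adjusted p = 0.353, edgeR). Sox6 had 25 and 20 counts in treated control libraries, 0 and 4 in treated KO libraries and at most 5 in untreated ones. It passed the filter on low counts only through the treated control pair, the group where it is high. Neither its call in treated libraries nor its p after TGF-β in control cells is therefore a result.

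Ezh2 (ENSMUSG00000029687.9, chr6:47480273-47545340, minus strand) had 71.6 and 80.8 CPM in untreated control libraries and 56.5 and 101 CPM after TGF-β. In KO libraries it had 62.3 and 75.7 CPM untreated and 61.5 and 48.2 CPM treated. The treated control libraries lay on either side of the untreated ones, and the treated KO libraries lay below the untreated ones. The log2 fold change after TGF-β was 0.043 (95% interval -0.53 to 0.62, adjusted p = 0.936) in control cells and -0.34 (-0.91 to 0.24, adjusted p = 0.489) in KO libraries. The upper bounds lay below the estimates for Sox4 and Ets1 in the same comparisons. In control cells the sign turned to -0.085 with a correction for GC content, to -0.018 with limma-voom and to -0.45 without treated replicate 2. The lincRNA Gm17629, which overlaps 174 exonic bases of Ezh2 on the opposite strand, had at most 1 count.

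The 11 other PRC2 subunits and cofactors listed were all found and tested, and none was called in any comparison by edgeR. At an unadjusted p below 0.05 there was 1 after TGF-β in control cells, 1 in KO libraries, 0 between untreated genotypes and 2 between treated genotypes, against 26.8%, 22.7%, 14.9% and 31.4% of all tested genes. Their median log2 fold change was -0.069 and 0.010 after TGF-β in control and KO libraries, and -0.17 and -0.32 for KO against control untreated and treated. Per transcript length, Ezh2 exceeded its paralogue Ezh1 by 3.57 and 3.60 times in untreated control libraries and by 3.54 and 5.27 times after TGF-β. In KO libraries the ratio was 2.52 and 2.89 untreated and 2.44 and 2.45 treated. The ratio was lower in each KO library than in each control library, which is a description of 8 libraries and was not tested.

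**Figure D4:**
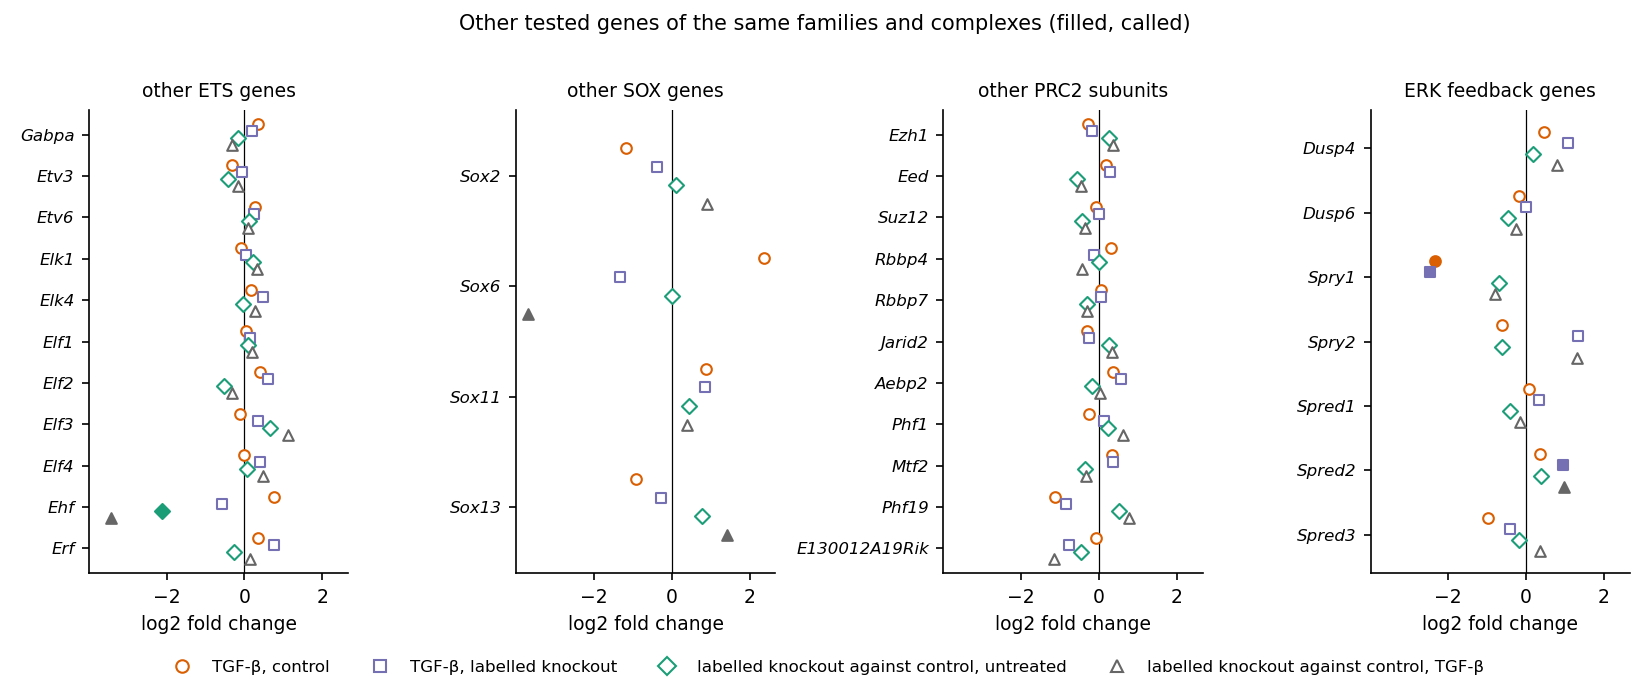
Fitted log2 fold changes (x axis) of the other tested ETS genes, SOX genes, PRC2 subunits and ERK feedback genes in the 4 pairwise comparisons, with filled symbols for called genes. Filled symbols appear for Ehf, Sox6 (which passed the filter only through the treated control pair), Sox13, Spry1 and Spred2, and for no PRC2 subunit.

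Between genotypes, none of the 8 genes was called. In untreated libraries 0 of 8 passed by edgeR, with 0 called by DESeq2 or limma-voom, where 1.83% of all genes were called by edgeR. None had an unadjusted p below 0.05, against 14.9% of all genes. The libraries of the genotypes did not overlap for 6 of the 8 genes, against 51.9% of all genes. These were Sox4, Sox9, Ets2, Elk3 and Etv5, higher in KO, and Ets1, lower in KO. The log2 differences were 0.22 (95% interval -0.24 to 0.68) for Sox4, 0.21 (-0.083 to 0.51) for Ets2, 0.18 (-0.19 to 0.55) for Elk3 and 0.81 (-0.067 to 1.69) for Etv5. For Ets1, the gene with the miR-181 seed match, the difference was -0.30 (-0.68 to 0.072, adjusted p = 0.444), and after TGF-β it was -0.21 (-0.58 to 0.16, adjusted p = 0.415). For Ezh2 and Etv4 the untreated libraries overlapped.

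After TGF-β, 0 of 8 passed by edgeR and limma-voom and 1, Sox9, by DESeq2, where 15% of all genes were called by edgeR. At an unadjusted p below 0.05 there were 2 of 8, Sox9 and Ets2, against 31.4% of all genes. The libraries did not overlap for 2 of the 8, Ets2 and Elk3, both higher in KO, against 55.8% of all genes. Ets2 differed by 0.35 ± 0.13 (adjusted p = 0.101), Elk3 by 0.33 ± 0.16 (adjusted p = 0.197) and Ezh2 by -0.52 ± 0.26 (adjusted p = 0.198). Calls for Sox4 and Ezh2 depended on 1 library: without treated control replicate 1 they were 0.56 (adjusted p = 0.0381) and -0.88 (adjusted p = 0.0155), and without treated control replicate 2 they were -0.079 and -0.031. These comparisons share their libraries with the TGF-β comparisons above.

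The difference between the TGF-β responses of the genotypes was tested as an interaction. Of the 13028 genes 0% were called by edgeR, and of the 8 none was called or had an unadjusted p below 0.05 by edgeR, DESeq2 or limma-voom. The interaction of Sox4 was -0.019 (95% interval -0.66 to 0.62), of Ets1 0.094 (-0.43 to 0.62) and of Elk3 0.15 (-0.37 to 0.66). These intervals give the differences between the responses that the data allow, not a limit of detection. A call needed an adjusted p below 0.05 over 13028 genes, so larger differences could also go uncalled. The interaction of Ets2 was 0.14 (-0.28 to 0.56) and of Ezh2 -0.38 (-1.19 to 0.44). The intervals of the scarce genes were wider, from -1.77 to 1.88 for Sox9, from -1.75 to 1.44 for Etv4 and from -1.60 to 0.84 for Etv5.

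The spread within the treated pairs was uneven across the 8 genes. In the treated control pair, replicate 1 exceeded replicate 2 by 1.39 log2 CPM for Etv4, 1.10 for Sox9, 0.66 for Sox4, 0.55 for Etv5, 0.36 for Elk3, 0.24 for Ets1 and 0.17 for Ets2, and the difference was -0.83 for Ezh2. In the treated KO pair the differences were -0.87, -1.86, -0.040, -0.73, -0.23, -0.32 and -0.18 in the same order of genes, and 0.35 for Ezh2. The sign was thus opposite in the 2 pairs for all 8 genes. Over the 13028 genes, a set whose members are not independent of each other, this difference correlated with the GC content of the exons, with Pearson's r = 0.42 in the treated control pair, -0.30 in the treated KO pair, 0.35 in the untreated control pair and 0.031 in the untreated KO pair. Ezh2 exons had the lowest GC content of the 8, 44.25%, at the 25.2 percentile of coding genes, and Etv4 exons the highest, 60.31%, at the 96.2 percentile. Sox9, with the largest difference in the treated KO pair, was at 49.26% and the 50.9 percentile, and the other 5 lay between 46.51% and 52.00%. With the GC trend of each library removed, the same 3 genes were called after TGF-β in each genotype and none between genotypes.

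**Figure D5:**
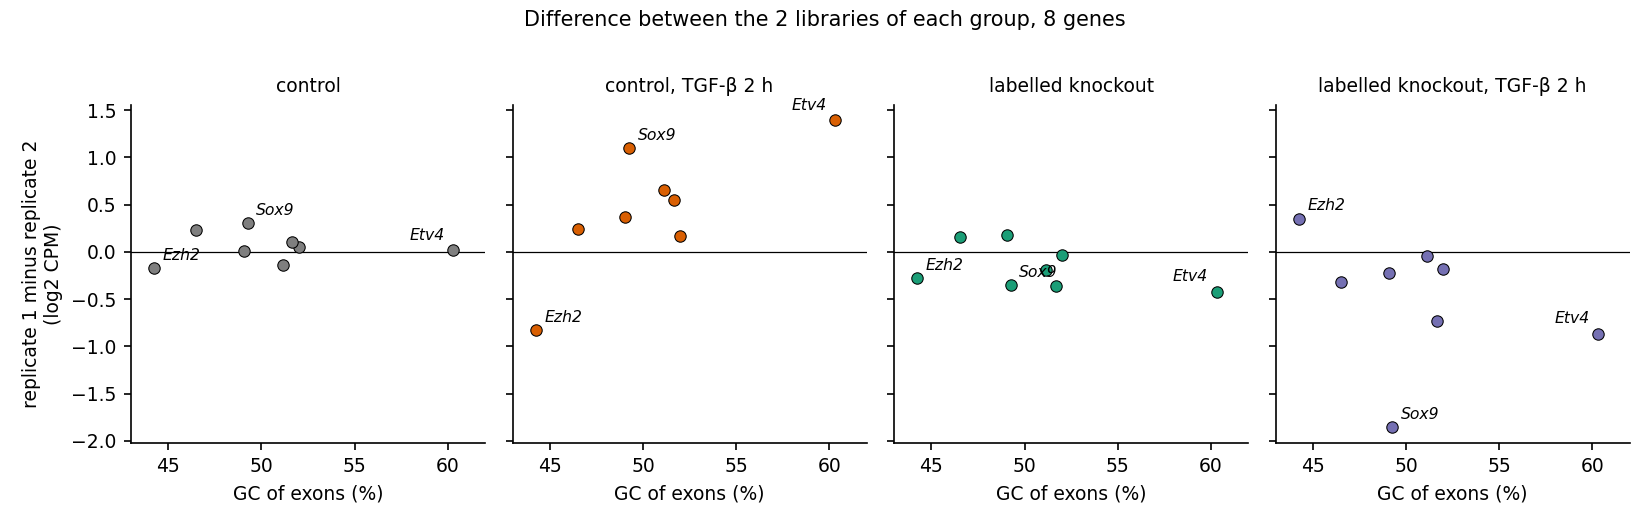
Difference between replicate 1 and replicate 2 in log2 CPM (y axis) for the 8 genes against the GC content of their exons in percent (x axis), one panel per group. In the treated control panel Ezh2 is lowest at -0.83 and Etv4 highest at 1.39, and in the treated KO panel Sox9 is lowest at -1.86.

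For the 3 genes called after TGF-β, the tested genes with the most similar profile over the 8 libraries were found by Pearson's r of log2 CPM, among 13027 others. The 8 points fall into an untreated and a treated cluster and share library and depth, so r is given as a description. Near to Ets1 were Clic4 (r = 0.990) and Cdc42se1 (0.990). Clic4 had 169 and 176 CPM in untreated control libraries, 399 and 352 CPM after TGF-β, 141 and 145 CPM in untreated KO libraries and 285 and 381 CPM in treated KO libraries. The nearest to Elk3 were Lrp4 (0.994), Lce1f (0.993) and Smad7 (0.993), the inhibitory SMAD. Smad7 had 27.6 and 33.5, 129.6 and 66.9, 38.8 and 31.3, and 132 and 207 CPM in the same order. Lrp4 and Lce1f each had 0 CPM in both untreated control libraries, 0.22 and 0 CPM in untreated KO libraries and at most 8.81 CPM in treated ones. They passed the filter on low counts only through treated libraries, where they are high, so their r with Elk3 is no result. The nearest to Sox4 were 2010111I01Rik (0.990), Endod1 (0.990) and Rps7 (0.985). Endod1 had 81.6 and 86.8, 259 and 214, 88.7 and 110.7, and 248 and 291 CPM in that order, while Rps7 stayed between 64.4 and 87.2 CPM.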

How the data were processed

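Poly(A) or total RNA from 8 NMuMG libraries had been sequenced on Illumina machines; the paper's methods and the labels differ on the kit, the read layout and the aligner (subjunc or HISAT2), and the counting step and its strand setting are not given in the sources used here. The authors deposited whole-number read counts per gene, not normalized, with duplicates removed per the methods. The 37310 gene identifiers are those of GENCODE vM1 (NCBIM37), in the same order. Groups came from the labels, 2 libraries each; the methods call them biological replicates. Counts were tested with edgeR 4.0.16 (R 4.3.3; TMM factors, filterByExpr, 4 group means, quasi-likelihood test, Benjamini-Hochberg adjustment over 13028 genes). A gene was called where its adjusted p was under 0.05 and its log2 fold change beyond 0.5 in size, the interaction at the adjusted p alone. Errors are SE of log2 fold changes; intervals are 95%. With 2 libraries per group, residual degrees of freedom were 4. Likeness used log2 CPM with a prior count of 2. Promoter and miRNA sequences are from RefSeq tables, the Ets1 site from GENCODE vM1 transcripts. DESeq2 1.42.0, limma-voom (limma 3.58.1), RLE factors, 2 other filters, no fold threshold, the libraries of 1 comparison alone, a replicate block and each library left out were alternatives; GC correction and exchanged replicate numbers were added after seeing the data. The members and gene lists were chosen with earlier results of these data known. All 8 members are named with their values, list genes by counts with those called, and for each called member the 3 genes with the highest r. One gene that this rule would name beside Ets1 is not reported here.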

Additional observations from a re-analysis of the deposited data

How the results depend on the processing

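The count of members called after TGF-β was 3 in either genotype under RLE factors, a mean of at least 10 counts, DESeq2, limma-voom, GC correction and the replicate block; it was 2 for the 4 control libraries alone, 4 in control cells with no fold threshold and 4 in KO libraries with no filter. Between genotypes the count of 0 became 1 with no filter (untreated and treated), for the 4 untreated libraries alone and, after TGF-β, with DESeq2, each time Sox9. Leaving out each library gave 1 to 4 in control cells, 1 to 3 in KO libraries, 0 untreated and 0 to 2 after TGF-β between genotypes, and 0 for the interaction. The 1 in control cells was Ets1 without untreated control replicate 1, and in KO libraries Ets1 without untreated KO replicate 1. Over all genes, calls went from 1194, 889, 238 and 1959 to 2021, 1832, 756 and 2823 with no filter, to 428 untreated between genotypes by DESeq2, and to 483, 929, 797 and 402 for the libraries of 1 comparison alone; the interaction went from 0 to 211 with no filter and 30 by DESeq2. The GC correction took the control TGF-β, KO TGF-β and untreated genotype counts to 1555, 1344 and 311, limma-voom gave 137 in the last, and leaving out each library gave 139 to 1479, 136 to 1381, 41 to 393 and 486 to 2790 in the 4 comparisons. Same-numbered libraries deviated together with r = 0.297, -0.0092, 0.098 and -0.473 in the 4 comparisons, so the numbers were not taken to pair them; with the replicate block the counts of members called were 3, 3, 0, 0 and 0, and of all genes 831, 676, 150, 1490 and 0. With the numbers exchanged for the treated KO libraries, 1 member and 2809 genes were called after TGF-β between genotypes.

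Of 712 alternatives for single genes, 655 kept direction and call, 8 lost a call, 11 gained one and 38 changed sign. Sign changes after TGF-β in control cells were Ezh2 with GC correction (-0.085), with GC correction and block (-0.10) and with limma-voom (-0.018), and Etv4 with limma-voom (-0.12). Between genotypes they were Etv4 untreated with GC correction (-0.11) and with the block added (-0.12), and treated with limma-voom (0.023). In the interaction they were Sox4 with no filter (0.046), GC correction (0.022), GC correction and block (0.026) and limma-voom (0.012), and Sox9 with the replicate block (-0.022) and limma-voom (-0.16). Leaving out each library, values after TGF-β in control cells ranged from -0.45 to 0.39 for Ezh2, -0.90 to 0.55 for Etv4 and -0.41 to 0.15 for Etv5, and in KO libraries from -0.40 to 1.48 for Sox9 and -0.64 to 0.27 for Etv4. Between genotypes they ranged from -0.16 to 0.28 for Etv4 untreated, and treated from -0.079 to 0.56 for Sox4 and -0.59 to 0.86 for Etv4. In the interaction the ranges were -0.28 to 0.36 for Sox4, -1.14 to 0.74 for Sox9, -0.72 to 0.13 for Ezh2, -0.055 to 0.27 for Ets1 and -0.67 to 0.78 for Etv4. The cause of these changes was not tested. The standard errors were largest for Sox9, Etv4 and Etv5, the genes with the fewest counts, and the shares of depth and replicate spread in them were not tested. With 1 library left in a group that library is assumed to vary like the others.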

Other observations

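The enzymes that remove the Ezh2 mark, the H3K27 demethylases Kdm6a and Kdm6b, were both tested and neither was called in any comparison (edgeR); after TGF-β between genotypes 1 of them had an unadjusted p below 0.05, as 31.4% of all tested genes did. Kdm6a lay between 87.6 and 149.4 CPM in the 8 libraries. Kdm6b had 16.9 and 15.4 CPM in untreated control libraries and 24.6 and 11.8 CPM after TGF-β, and 19.8 and 22.7 CPM in untreated and 23.5 and 47.2 CPM in treated KO libraries, its difference between treated genotypes being 0.95 ± 0.37 on the log2 scale (adjusted p = 0.117). Treated KO replicate 2 held the highest value of both Kdm6b and Sox9.

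The ratio of Sox4 to Sox9 per transcript length was 13.05 and 17.8 in untreated control libraries and 22.9 and 31.6 after TGF-β. In KO libraries it was 7.69 and 6.88 untreated and 26.6 and 7.43 treated, so treated KO replicate 2 lay within the untreated KO range.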
